A study of Mus musculus with 51 samples.

Results

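The H3K27me3 profile of mouse embryos that lack LoNA was set against that of control embryos, over all 11638 regions that the authors deposited as H3K27me3 peaks. These are 11638 of the 81643 peak rows that the series holds for 3 chromatin targets. All peaks of the H3K27me3 table were taken, with no choice by value. LoNA is a long noncoding RNA of the nucleolus that is known for holding down the production of ribosomal RNA. Both groups were C57BL/6 embryos collected at 24 h, which the RNA labels describe as 2-cell embryos, and they were labelled control and LoNA KO. The labels give neither the allele nor the way in which LoNA was knocked out, and nothing on how many embryos were pooled. The treatment field names a p300 inhibitor for these chromatin samples too, although neither title nor table speaks of one. Each group was 1 library, made by an in-situ method in which a transposase tethered through the antibody cuts and tags DNA. Nothing below is therefore a test of the knockout, and every interval covers counting error only.

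H3K27me3 is the trimethylated form of lysine 27 on histone H3. Polycomb repressive complex 2 (PRC2) writes it through its catalytic subunit Ezh1 or Ezh2, held together with Eed and Suz12. The mark is known for silent developmental genes with CpG-rich promoters, such as the Hox clusters. In the early mouse embryo it is also known for broad domains inherited from the oocyte and for a form of imprinting that does not depend on DNA methylation.

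The control library held 47253912 total reads and the KO library 50153338, as the table gives them. The columns are named by initials only. The numerator of the authors' ratio was taken as KO and the denominator as control, because the table is titled as KO normalized to control. If that reading were wrong, every direction below would turn round. A peak's level is given in RPM, the per-million share of the library's total reads. Its log2 ratio is KO over control with 0.5 reads added to each. In the 24 h RNA all 12 two-cell and oocyte marker genes were present (1 of them was at 0 in 1 KO library), with a summed level between 18880 and 47250 CPM (the per-million share of a library's counts) in the 4 libraries.

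The peaks covered CpG-rich promoters more than others. Of the 32851 RefSeq promoter windows of 300 bases (build GRCm38.p6, which is mm10), 2559 overlapped an H3K27me3 peak. The windows with a peak held a median of 18 CpG (quartiles 11 and 26) and 62.3% G and C, against 6 CpG (quartiles 2 and 20) and 52.0% in the other 30292. Only 1.18% of windows with 0 to 4 CpG had a peak. This share was 6.39% at 5 to 9 CpG, 16.3% at 10 to 19, 14.1% at 20 to 29, 13.0% at 30 to 39 and 7.63% from 40 upwards. The share was thus highest in windows of intermediate CpG number, not in the richest.

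Promoter sequences of 5 genes follow, each with the 250 bases before the gene's start, from RefSeq, and each lying wholly inside a peak. CpG is in capitals, and since CG reads the same on both strands each one counts once. The first 3 show the promoters with the highest control level among the listed Hox genes, developmental transcription factors and signalling genes whose upstream stretch is wholly covered. Mns1 and Slc41a2 show the highest and the lowest ratio of KO to control among protein-coding genes so covered.
Hoxd1: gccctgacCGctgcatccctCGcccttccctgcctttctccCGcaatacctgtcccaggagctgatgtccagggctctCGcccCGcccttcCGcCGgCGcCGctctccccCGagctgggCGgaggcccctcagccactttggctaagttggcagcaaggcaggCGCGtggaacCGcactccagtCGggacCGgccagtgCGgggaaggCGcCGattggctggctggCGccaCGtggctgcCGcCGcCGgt
Neurog1: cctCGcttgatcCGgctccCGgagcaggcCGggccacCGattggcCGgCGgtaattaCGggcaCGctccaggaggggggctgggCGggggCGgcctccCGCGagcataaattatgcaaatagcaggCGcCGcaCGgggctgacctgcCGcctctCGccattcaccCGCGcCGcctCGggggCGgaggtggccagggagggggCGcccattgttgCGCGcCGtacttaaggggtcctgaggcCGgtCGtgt
Wnt1: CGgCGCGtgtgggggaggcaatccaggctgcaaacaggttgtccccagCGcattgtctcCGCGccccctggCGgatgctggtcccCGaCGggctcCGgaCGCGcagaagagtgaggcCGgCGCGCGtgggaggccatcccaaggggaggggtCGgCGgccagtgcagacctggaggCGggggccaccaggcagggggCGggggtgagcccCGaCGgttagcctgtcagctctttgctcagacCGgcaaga
Mns1: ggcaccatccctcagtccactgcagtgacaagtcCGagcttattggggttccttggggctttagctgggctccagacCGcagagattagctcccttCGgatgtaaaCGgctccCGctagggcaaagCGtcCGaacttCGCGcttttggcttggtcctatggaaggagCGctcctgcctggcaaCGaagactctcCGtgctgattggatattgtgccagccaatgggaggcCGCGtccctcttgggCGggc
Slc41a2: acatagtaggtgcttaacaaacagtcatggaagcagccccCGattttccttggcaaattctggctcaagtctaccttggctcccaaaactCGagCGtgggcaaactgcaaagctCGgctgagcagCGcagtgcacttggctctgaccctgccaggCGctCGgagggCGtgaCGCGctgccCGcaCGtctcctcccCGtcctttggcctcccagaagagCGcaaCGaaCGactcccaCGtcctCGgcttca

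The Hoxd1 stretch lies at chr2:74762730-74762979 on the plus strand and holds 24 CpG at 71.6% G and C. Its peak had 369 control and 471 KO reads, or 7.81 and 9.39 RPM. Neurog1, a neuronal determination factor, has its stretch at chr13:56252181-56252430 on the minus strand, with 29 CpG at 71.2% G and C. Its peak was level between the libraries, at 17.4 and 17.6 RPM. The stretch of the Wnt ligand gene Wnt1, at chr15:98789607-98789856 on the plus strand, holds 23 CpG, and its peak had 13.8 and 14.8 RPM. Mns1, at chr9:72438279-72438528 on the plus strand, encodes a protein of sperm flagella and cilia and holds 15 CpG at 59.6% G and C. Its peak had 79 control and 147 KO reads, a log2 ratio of 0.81 (95% exact counting interval 0.41 to 1.22). Slc41a2, a magnesium transporter gene at chr10:83337818-83338067 on the minus strand, holds 18 CpG at the same G and C content. Its peak had 124 control and 82 KO reads, a log2 ratio of -0.68 (interval -1.10 to -0.27). The choice by control level or by ratio sets how many reads these 5 peaks have.

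Across the whole table the KO library resembled the control library closely. The median log2 ratio was 0.059 (quartiles -0.12 and 0.23), and 59.2% of peaks lay above 0. Centring the ratios on that median takes 0.059 from each, so that all values between 0 and 0.059 in the text then lie below 0. Within 1.5-fold were 95.2% of peaks. Log2 RPM correlated at r = 0.969 across peaks, which share both libraries and differ widely in width. The standard deviation (SD) of the ratio was 0.288, against 0.172 from counting reads alone, so peaks differed by more than their read numbers account for. How far 2 libraries of 1 condition would differ is not known here.

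**Figure D1:**
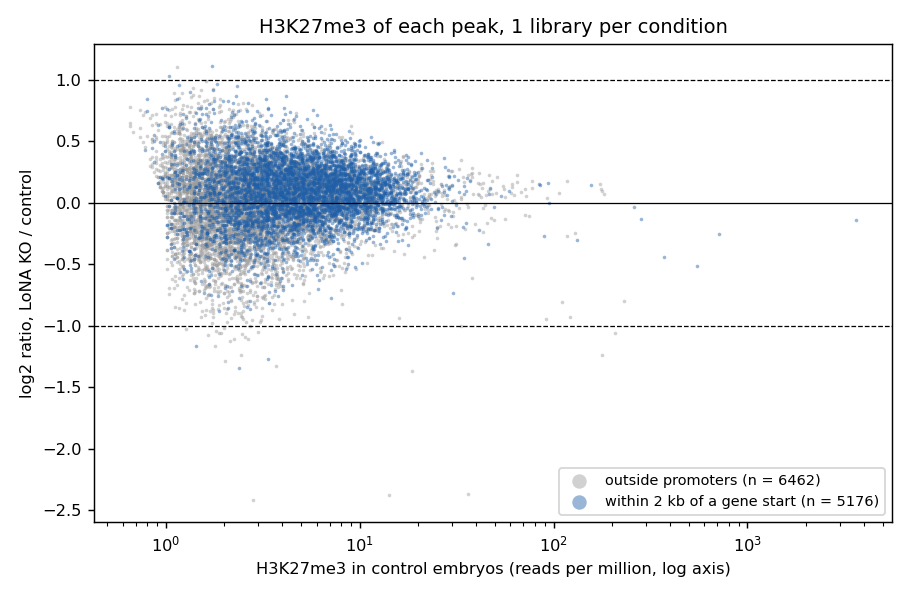
Log2 ratio of H3K27me3 (KO over control) of each of the 11638 peaks against its control level in RPM on a log axis, with promoter peaks in blue and the others in grey. Dashed lines mark 2-fold: 3 peaks lie at or above the upper line and 26 at or below the lower one, and the highest peaks lie mostly below 0.

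Of total reads, 6.77% fell in peaks in control (95% exact binomial interval 6.76 to 6.78) and 6.95% in KO (6.94 to 6.96). The 20 highest peaks alone took 11.9% of the control and 9.91% of the KO peak reads. Without them the shares were 5.97% in control and 6.26% in KO, so the KO excess was 0.293 percentage points in place of 0.179. Widths ran from 273 to 3646 base pairs (bp) with a median of 706, and the median level was 3.43 RPM in control and 3.57 RPM in KO.

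At 2-fold, 3 peaks were higher in KO (0.0258% of 11638) and 26 were lower (0.223%). Every peak passed the minimum of 20 reads, with 80 reads over both libraries in the poorest. At 1.5-fold the counts were 258 higher (2.22%) and 299 lower (2.57%). This split depends on the scaling. With reads in peaks in place of total reads it was 187 higher and 352 lower, and with ratios centred on their median 155 and 399.

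The 3 peaks past 2-fold upwards were weak. Terb1, which encodes a meiotic telomere attachment protein, had a peak over its start at chr8:104509110-104509987 with 82 control and 189 KO reads. Its log2 ratio was 1.11 (interval 0.74 to 1.51). A peak inside the gene body of the adhesion molecule gene Alcam (chr16:52280760-52281588) had 54 and 124 reads, and one 1274 bp from the start of Gm16556 (chr6:122572123-122572591) had 49 and 107. Just under the threshold lay an intergenic peak at chr2:84194702-84195538, at 0.99, and a peak over the start of Gm7278 inside Rgl1, at 0.97.

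The peaks past 2-fold downwards were short and mostly away from promoters. Of these 26, 20 were under 500 bp, against 21.4% of all peaks, and 3 were promoter peaks. Their promoter members were Gm29163 (113 control and 47 KO reads), Cdk14, a cyclin-dependent kinase gene (160 and 70), and Fam107b (68 and 32). At 1.5-fold the same held: 15.4% of the lower peaks were promoter peaks, against 41.5% of the higher and 44.5% of all. Just inside the lower threshold lay an intergenic peak at chr13:69646789-69647568, at -1.005, and just outside it the last peak of chromosome X, at -0.998.

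Several strong peaks with low KO values lay at the last base of a chromosome that any peak covers. Chromosome lengths were not used, so this base need not be the chromosome's end. The set of such peaks was singled out after its values were seen, so it is a description with no test. In 12 of the 21 chromosomes an H3K27me3 peak ended within 1 kb of the last base that any of the 3 peak tables covers. All 12 had a log2 ratio below 0. Of them, 9 had over 10 RPM in control, and these 9 lay between -2.37 and -0.74. Among all 1258 peaks with over 10 RPM in control, 13 were 1.5-fold lower (1.03%), and 9 of those 13 were such last peaks. The strongest of the peaks past 2-fold downwards was not one of them: it lay inside chromosome 9 (chr9:35305222-35305594), in the gene body of Gm33838, with 9826 control and 4998 KO reads (208 and 99.7 RPM, -1.06). None of the 1258 was 1.5-fold higher.

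On chromosome 3 the last peak (chr3:159939405-159939678) had 1716 control and 352 KO reads, or 36.3 and 7.02 RPM. Its log2 ratio was -2.37 (interval -2.54 to -2.21). The last peak of chromosome 19 (chr19:61331278-61331562) had 14.2 and 2.73 RPM, with the same ratio of -2.37. On chromosome 12 the last peak (chr12:120028665-120029020) had 178 and 75.8 RPM, and on chromosome 14 (chr14:124801559-124802237) it had 231 and 132 RPM. Both pairs are far apart against counting error, with log2 ratios of -1.24 (interval -1.29 to -1.18) and -0.80 (interval -0.85 to -0.76). On chromosomes 2, 7, 10, 18 and X the last peak had a ratio between -0.998 and -0.74. The remaining 3, on chromosomes 4, 5 and 6, were weak, with 57 to 125 control reads and ratios of -0.46, -0.15 and -0.22. Those on chromosomes 5 and 6 ended 345 and 363 bases before the last covered base.

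The other profiles differed from H3K27me3 at these places, AcNPM1 in direction and H3K4me3 in size. At the 9 strong last peaks AcNPM1, the acetylated form of the nucleolar chaperone nucleophosmin, had log2 ratios between 0.33 and 0.87, and H3K4me3 between -0.12 and 0.058. On chromosome 3, AcNPM1 was at 44.4 RPM in control and 81.2 RPM in KO while H3K4me3 was at 60.0 and 55.1 RPM. Over all chromosomes, the other 36 H3K27me3 peaks within 200 kb of the last covered base had a median ratio of 0.045, with 16 of them below 0. The lowest of these 36 was on chromosome X (chrX:170758172-170758506), at 18.6 RPM in control and 7.20 RPM in KO (-1.37).

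A second group of strong peaks lay at predicted genes of chromosomes 2, 9 and 14. As background, such places are known for copies of satellite repeats, short sequences in long tandem runs, but the repeat content of these peaks was not tested. The strongest peak of the table (chr2:98666251-98667317, at Gm10800) took 5.38% of control peak reads, with 171989 control and 165670 KO reads. Its level was 3639.7 RPM in control and 3303 RPM in KO, a log2 ratio of -0.14. The next ones were at Gm21738 on chromosome 14 (715 and 598 RPM, -0.26), Gm10718 on chromosome 9 (549 and 383 RPM, -0.52), Gm10801 on chromosome 2 (373 and 274 RPM, -0.44) and Gm10722 on chromosome 9 (282 and 257 RPM, -0.13). The 5 strongest peaks were thus all lower in KO, by up to 1.43-fold.

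In the first 50 kb of the assembled chromosome 9 all 15 peaks were below 0, with 1529 RPM in control and 1259 RPM in KO over the 15. The other profiles had other values there than at the last peaks of chromosomes. H3K4me3 had a median log2 ratio of 0.51 and AcNPM1 one of -0.44 at the same places. Over the 20 strongest peaks, 14 were below 0 for H3K27me3, and H3K4me3 was above 0 at 11, all of them among the 14. The 20 include the last peaks of chromosomes 2, 7, 12 and 14, where H3K4me3 was nearly level (0.0054, -0.014, 0.058 and -0.021). How the authors placed reads that match many copies is not given in the sources used here, so a copy cannot be told apart from its relatives.

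Peaks near gene starts had the higher ratios. The 5176 peaks within 2 kb of a start, called promoter peaks here, had a median of 0.098 (quartiles -0.060 and 0.25), and the 2706 that lay over a start had 0.12. For 3169 peaks in gene bodies the median was 0.039, and for 3293 intergenic ones 0.0062. Promoter peaks were also wider (median 789 bp against 658.5 bp outside promoters) and stronger (4.66 and 2.65 RPM in control). The median ratio went from -0.015 in the narrowest of 5 width classes (up to 490 bp) through 0.035, 0.055 and 0.099 to 0.10 in the widest (from 1067 bp). Place, width and level moved together, and their parts in the ratio were not tested. Each of these medians is well inside the spread of single peaks.

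**Figure D2:**
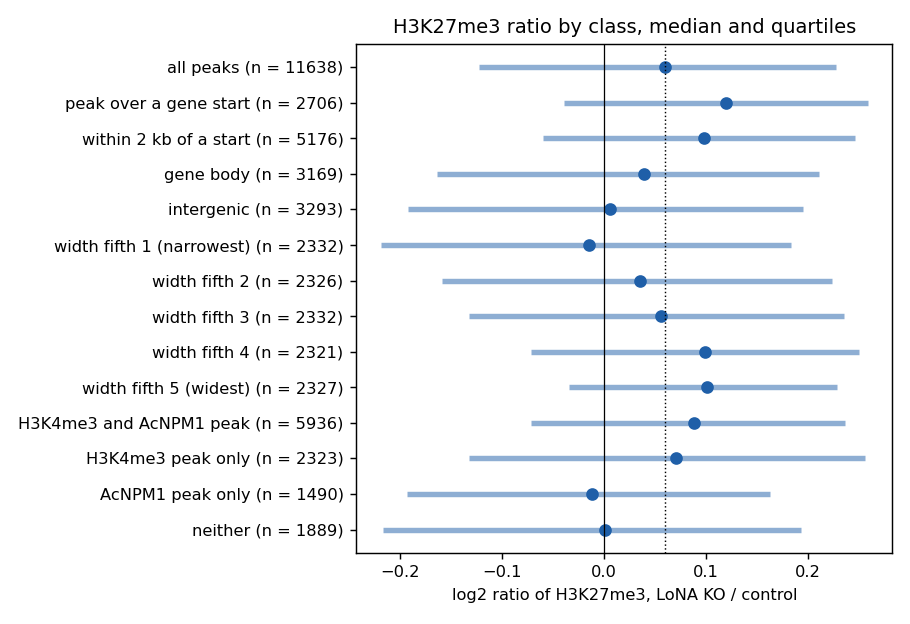
Median (point) and quartiles (bar) of the log2 ratio of H3K27me3 (KO over control) of peaks by place, by 5 classes of width and by overlap with H3K4me3 and AcNPM1 peaks, with the median of all peaks dotted. Medians run from -0.015 in the narrowest class to 0.12 over gene starts, and all bars overlap.

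The promoter peaks with the highest ratios after Terb1 and Gm16556 were at Gm7278, Nhs, Cpxm1, AA543401, Gria3, Alk, Ppp1r9b and Gm3526, with ratios from 0.97 down to 0.85. Alk, a receptor tyrosine kinase gene, was the strongest of them, with 198 control and 383 KO reads over its start (chr17:72603020-72603908). Its level was 4.19 RPM in control and 7.64 RPM in KO, a log2 ratio of 0.86 (interval 0.61 to 1.12). Gria3, an AMPA glutamate receptor subunit gene on chromosome X, had 63 and 125 reads. After Gm29163, Cdk14 and Fam107b, the lowest promoter peaks were at Cd55b, Iffo2, Wdr17, Gm51779, Gm21811, Gm41331 and Dgkk, with ratios from -0.88 to -0.80. None of these named promoters is a developmental regulator of the lists below.

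Promoters were then read by the roles of their genes. A gene's peaks within 2 kb of its starts were summed. Of 22598 protein-coding genes, 3955 (17.5%) had such a peak, with a median ratio of 0.11 (quartiles -0.041 and 0.24), with 2722 above 0 and 1233 below. Among these 3955, 82 were 1.5-fold higher in KO (2.07%) and 27 were 1.5-fold lower (0.683%). No member of any list below was past 1.5-fold in either direction.

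Hox genes encode the homeobox factors that set identity along the body axis. Of 41 with a known start, 24 had a promoter peak, and their median ratio was 0.13, with 20 above 0 and 4 below. Evx1, the homeobox gene next to the Hoxa cluster, had 12.3 and 14.6 RPM (0.24), and Hoxd1 a ratio of 0.27 (interval 0.07 to 0.47). Hoxb13, the strongest, was level at 21.4 and 21.7 RPM. Evx2, beside the Hoxd cluster, stood on the other side at 6.07 and 4.53 RPM (-0.42, interval -0.68 to -0.17), as did Hoxd9 at 10.5 and 9.09 RPM (-0.20). The 4 below 0 also include Hoxb8 and Hoxd13. Hoxc5 and Hoxc10 share 1 peak, and 1 of the 2 peaks of Hoxd4 is also that of Hoxd3.

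Over whole clusters the summed ratio was 0.17 for the 17 peaks of Hoxa (146 and 164 RPM) and 0.18 for the 10 peaks of Hoxc (65.3 and 74.1 RPM), all 10 of which were above 0. It was 0.14 for the 14 peaks of Hoxd (107 and 117 RPM) and 0.062 for the 13 peaks of Hoxb (97.7 and 102 RPM). Per kilobase of peak the control levels of the 4 clusters were alike, at 10.1 (Hoxa), 10.2 (Hoxb), 10.3 (Hoxc) and 10.1 RPM (Hoxd). The summed ratios of Hoxa, Hoxc and Hoxd lay above the median of promoter peaks (0.098) and that of Hoxb below it, all within the quartiles of promoter peaks.

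Transcription factors that direct tissue formation had similar values. Of 102, 60 had a promoter peak (58.8%), with a median of 0.081, 46 above 0 and 14 below. Isl1, a factor of motor neurons and heart, had 117 control and 176 KO reads and a ratio of 0.50 (interval 0.16 to 0.85). Nkx6-1, which patterns the neural tube and the pancreas, had 4.51 and 6.38 RPM (0.50, interval 0.25 to 0.76), and Lhx2, a forebrain and eye regulator, 8.08 and 11.3 RPM (0.49, interval 0.30 to 0.68). Eomes followed at 0.37, and Sox17, of the endoderm, at 0.31. Neurod2, the strongest of the list, was nearly level at 20.7 and 21.5 RPM, and so was Emx1, at 17.8 and 17.7 RPM. The lowest were Barhl2 (-0.18), Hand1 (-0.14), Nkx2-2 (-0.13) and Nkx2-5 (-0.11), and their counting intervals all include 0.

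Signalling genes had the largest share of marked promoters, 31 of 50 (62.0%), with a median of 0.12, 23 above 0 and 8 below. Among ligands, Fgf10 had 133 control and 201 KO reads (0.51, interval 0.19 to 0.84), and Inhba, a subunit of activin, 4.42 and 5.82 RPM (0.40, interval 0.13 to 0.66). Wnt7a was at 4.89 and 6.38 RPM (0.38), while Wnt6 was at 8.99 and 7.88 RPM (-0.19) and Ihh at 8.55 and 7.56 RPM (-0.18). Of the Wnt inhibitors, Sfrp1 and Sfrp2 had a ratio of 0.37 each, Dkk1 0.29, and Sfrp5, the strongest at 17.7 and 19.2 RPM, 0.12. The Wnt receptors Fzd1, Fzd2, Fzd8 and Fzd10 lay between 0.058 and 0.25.

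**Figure D3:**
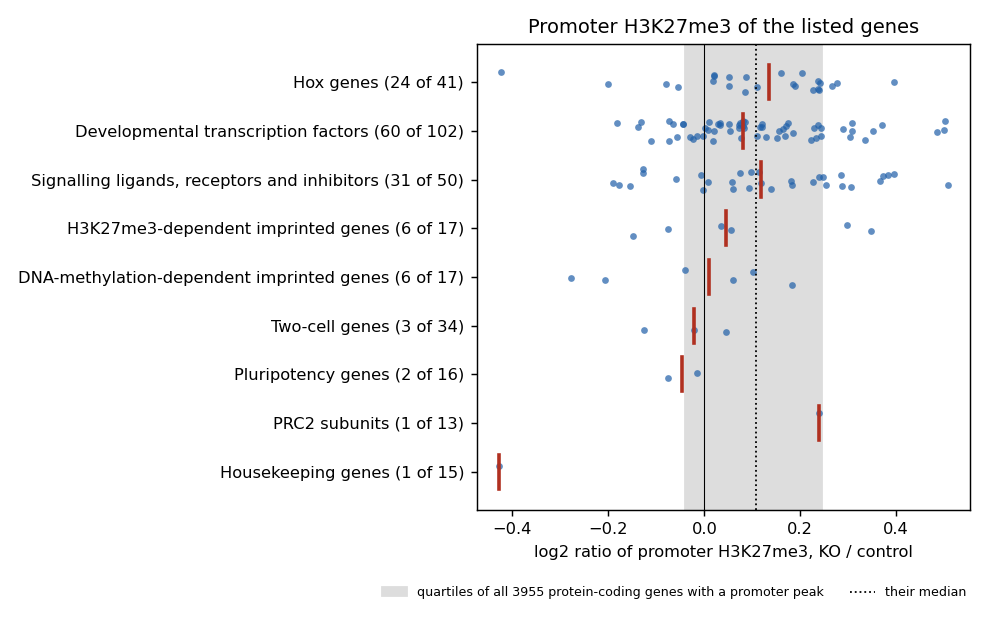
Log2 ratio of promoter H3K27me3 (KO over control) of each listed gene with a promoter peak (blue points) with the median of its list (red bar), and, in grey, the quartiles of all 3955 protein-coding genes with a promoter peak, with their median dotted. In brackets stand the genes with a peak of those with a known start; the Hox, transcription factor and signalling genes spread around the dotted line, between -0.42 and 0.51.

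Imprinted genes carried fewer peaks. Of 17 genes known for imprinting through H3K27me3, 6 had a promoter peak, and their median was 0.045 (-0.015 with ratios centred on the median of all peaks). Runx1, a blood regulator, had 620 control and 809 KO reads in 3 peaks (0.30, interval 0.15 to 0.45), and the signalling adaptor gene Gab1 3.20 and 4.07 RPM (0.35, interval 0.04 to 0.66). Sfmbt2, a Polycomb-related gene, was at 5.86 and 5.28 RPM (-0.15, interval -0.40 to 0.10), and Smoc1, Epas1 and Gramd1b had ratios of 0.055, -0.077 and 0.034. Of 17 genes imprinted through DNA methylation, 6 had a peak, with a median of 0.0095 (-0.050 when centred). The lowest of them were Mest at 3.56 and 2.93 RPM (-0.28, interval -0.61 to 0.05) and the cell cycle inhibitor gene Cdkn1c at 8.63 and 7.48 RPM (-0.21, interval -0.41 to -0.0018), and the highest was Plagl1 (0.18).

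Marked promoters were also counted among two-cell, pluripotency, PRC2, nucleolar and housekeeping genes. Among 34 two-cell genes 6 had an H3K4me3 promoter peak and 3 an H3K27me3 one: Duxf3, of the Dux family that starts the two-cell programme (42.3 and 43.6 RPM), Sp110 (30.3 and 29.9 RPM) and Arg2 (400 control and 389 KO reads). Of 16 pluripotency genes 2 had one, Esrrb (-0.076) and Prdm14 (-0.016), and of 13 PRC2 subunits only Phf19 had one (9.44 and 11.1 RPM, 0.24, interval 0.06 to 0.42). None of 13 nucleolar genes, Npm1 among them, had a promoter peak, although 12 of the 13 had an H3K4me3 promoter peak. Among 15 housekeeping genes the exception was Rpl7, with 118 control and 93 KO reads (-0.43, interval -0.84 to -0.025). All these shares lie below the 17.5% of protein-coding genes, and those of the Hox, transcription factor, signalling and imprinted lists above it. The lists are short, and the 12.5% of pluripotency genes is near that share. Two-cell genes also had few H3K4me3 promoter peaks, 17.6% against 68.9% of protein-coding genes.

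Repeated RNA genes were covered as well. The 5S array, which carries the genes of the smallest ribosomal RNA on chromosome 8, held 33 peaks with 1803 RPM in control and 1901 RPM in KO, a ratio of 0.076 for the sum (interval 0.063 to 0.089). The locus of 4.5S RNA on chromosome 6 held 24 peaks with 833 and 910.4 RPM (0.13), of which 22 were above 0. A further interval of the same chromosome was bounded only by the genes Hrh1 and Atg7, and whether it holds RNA genes was not read. It held 49 peaks with 1199 and 1320.0 RPM (0.14), of which 39 were above 0. The 18S pseudogene Rn18s-rs5 on chromosome 17 was level, at 318 and 315 RPM. Levels per kilobase of peak were 60.5 and 63.8 RPM at 5S and 74.2 and 73.6 RPM at Rn18s-rs5, several times those of the Hox clusters. Copy numbers were not measured, and how reads that match several copies were placed is not given. These levels therefore cannot be compared with the Hox clusters per gene copy. Of the 33 peaks at 5S, 32 also overlapped an AcNPM1 peak and 24 an H3K4me3 peak.

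Gene families in clusters also took many peaks. The protocadherin cluster, whose cell-surface molecules tell neurons apart, had 53 peaks with 489.9 and 527 RPM (0.11), 34 of them above 0. The MHC class I genes from H2-D1 to H2-T3 had 44 peaks with 383 and 399 RPM (0.058, which centring brings to about 0), 23 above 0. From Gm36166 to Defb33, a stretch of chromosome 8 with genes of defensins and their neighbours, lay 77 peaks with 594 and 592 RPM (-0.0057), 31 above 0. No cluster was shifted by as much as the 12 last peaks of chromosomes, whose summed ratio was -0.98.

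**Figure D4:**
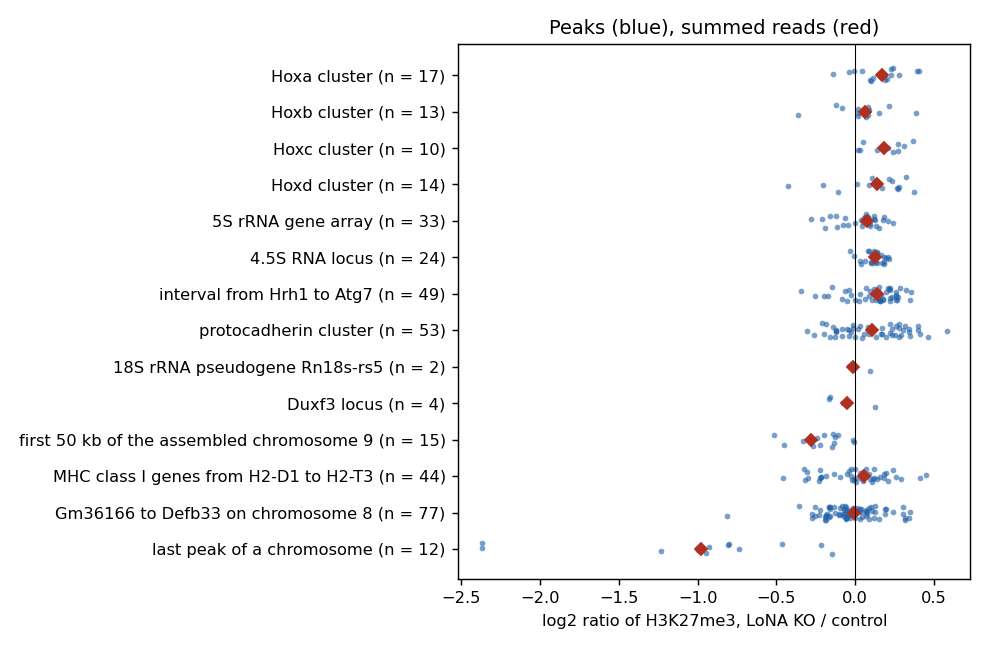
Log2 ratio of H3K27me3 (KO over control) of each peak (blue points) and of summed reads (red diamonds). Shown are gene clusters, RNA gene arrays, the interval from Hrh1 to Atg7, the start of chromosome 9 and the last peaks of chromosomes. Hox and RNA gene arrays lie slightly above 0 except Rn18s-rs5, all 15 peaks at the start of chromosome 9 lie below 0, and the 12 last peaks reach down to -2.37.

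H3K4me3, the mark of active and poised promoters, overlapped most H3K27me3 peaks. At least 1 base was shared by 8259 peaks (71.0%), and at promoters by 86.9%. Seen from the other side, 16.6% of the 48658 H3K4me3 peaks overlapped an H3K27me3 peak. An AcNPM1 peak overlapped 7426 H3K27me3 peaks (63.8%), and 7511 of the 9602 AcNPM1 peaks (78.2%) overlapped an H3K27me3 peak. Requiring that 50% of the H3K27me3 peak be covered left 8010 and 6976. Across shared peaks the control levels (log2 RPM) of H3K27me3 correlated at r = 0.42 with H3K4me3 and at r = 0.89 with AcNPM1. These points share peak width, and the AcNPM1 table has 1 column per condition where the labels list 3 samples.

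The ratios of the profiles hardly followed each other. Spearman's rho across shared peaks was -0.079 between H3K27me3 and H3K4me3 and 0.021 between H3K27me3 and AcNPM1, over 8259 and 7426 peaks. Where both other peaks were present (5936 peaks), the median H3K27me3 ratio was 0.088, with H3K4me3 alone 0.070 (2323 peaks), with AcNPM1 alone -0.012 (1490 peaks) and with neither 0.0012 (1889 peaks). H3K4me3 at shared peaks had a median ratio of -0.11 against -0.13 over its whole table, and AcNPM1 0.17 against 0.14. Nearby H3K27me3 peaks were little more alike: r of the ratios was 0.093 for neighbours up to 2 kb apart (863 pairs) and 0.010 beyond 10 kb, up to 100 kb.

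RNA of embryos of the same age showed whether RNA of genes with a marked promoter was present. RNA kept from the oocyte was not told apart from RNA made in the embryo, so presence is not a measure of transcription. A promoter peak marked 3797 protein-coding genes that the RNA tables list, and 16225 had none. For these shares CPM was taken of a library's plain total of counts, without TMM scaling. At 24 h, 25.8% of the marked and 38.6% of the others reached 1 CPM in the mean of control libraries, and 22.9% and 34.9% in KO. The same order held at earlier times. In control embryos the shares were 50.01% and 63.9% at 18 h, 48.1% and 61.8% at 20 h, and 44.98% and 60.7% at 22 h. In each of the 8 groups of time and genotype the highest library for marked genes lay below the lowest for the others.

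**Figure D5:**
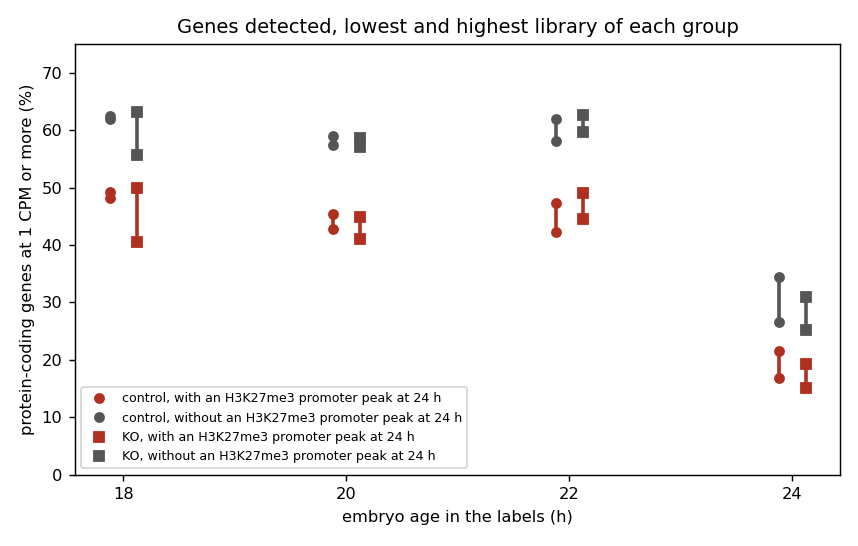
Share of protein-coding genes at 1 CPM or more (of plain library totals) in the lowest and the highest RNA library of each group, by embryo age in hours. Genes with an H3K27me3 promoter peak at 24 h are red and those without are grey, in control (circles) and KO (squares). At 24 h marked genes lie between 15.1% and 21.5% and the others between 25.1% and 34.4%.

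These are bulk samples, in which fewer cells of a type and less RNA per cell cannot be told apart. Calls of a difference between KO and control in the 24 h RNA depended on the tool. The labels list 4 samples per group. Columns of a group that correlated above 0.99 were summed here, which left 2 libraries per group of 13066794 to 16922914 counts each. On these, edgeR's quasi-likelihood test called 0 of 7425 genes higher (0%) and 0 lower (0%) at a Benjamini-Hochberg adjusted p of 0.05. It thus called none of the 861 tested genes with a promoter peak. At an unadjusted p under 0.05 it found 57 of these 861 (6.62%), 14 of them higher in KO, against 383 of 7425 over all genes (5.16%), 143 of them higher. Their median log2 change was -0.11, against 0.023 over all genes tested. DESeq2 was fitted to all 13718 genes, and its calls were counted among the 7425 that edgeR tested. Genes without a DESeq2 adjusted p counted as not called. It called 68 of the 861 (7.90%), 16 higher and 52 lower, against 6.09% of the 7425. With all columns kept separate, edgeR called 109 of 789 marked genes tested (13.8%), against 12.1% of all genes tested. Leaving out control library 2 gave 4 edgeR calls among marked genes, and leaving out control library 1 gave 1. The libraries of a group differed widely, with a biological coefficient of variation of 158% in the edgeR fit.

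Single marked genes showed that spread. Of the 24 Hox genes with a promoter peak, 5 reached 1 CPM in any library. Only 3 of them were tested by edgeR, and 0 had an adjusted p under 0.05. Hoxa7 had 14.5 and 58.1 CPM in the control libraries and 0 in both KO libraries (edgeR adjusted p = 0.826). Hoxd1 had 13.8 and 3.99 CPM in control and 0 in both KO libraries, and Hoxc10 2.91 and 4.199 CPM against 0 in both. Hoxa10 was at 3.37 CPM in 1 control library and at 0 in the other libraries. Their promoter H3K27me3 ratios were 0.20 (Hoxa7), 0.27 (Hoxd1), 0.051 (Hoxc10) and 0.18 (Hoxa10), all slightly above 0.

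Among the transcription factors, 21 of 60 reached 1 CPM in any library and 1 in all 4 libraries. That 1 gene, Tbx4, a factor of hindlimb and lung, had 34.2 and 2.00 CPM in control and 160.1 and 53.3 CPM in KO (edgeR adjusted p = 0.9999). Gata3, a regulator of trophectoderm, had 81.5 and 76.9 CPM in control and 0.071 and 0 CPM in KO (edgeR adjusted p = 0.826). Its promoter H3K27me3 stood at 11.98 and 14.1 RPM (0.24, interval 0.08 to 0.40). Pax6, Eomes and Neurog2 also had RNA in control only. Other factors went the other way. Lhx2, with a promoter ratio of 0.49, had 0 and 11.5 CPM in KO and 0 in both control libraries. Tbx15 (0.029) had 73.8 and 0.062 CPM in KO and 0 in both control libraries. Of the list, 9 genes were tested by edgeR, and 0 had an adjusted p under 0.05. The trophectoderm marker list, of which Gata3 is a member, summed to 104 and 113 CPM in control and to 0.071 and 6.53 CPM in KO, with 4 of its 6 genes in the table and 3 of these 4 at 0 in each KO library. Blood markers summed to 21.2 and 42.1 CPM in control and 0.14 and 189 CPM in KO. The part of other cells or later stages in these RNA values was not tested.

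Of the 20 promoter peaks with the highest and lowest ratios, those of 7 genes could be read together with an RNA test. Cdk14, with the lower promoter mark, had 28.98 and 95.5 CPM in control and 0.071 and 0.37 CPM in KO (edgeR adjusted p = 0.826). Terb1, with the higher one, had 116 and 35.0 CPM in control and 20.9 and 0.18 CPM in KO (edgeR adjusted p = 0.9999). The promoter ratios of Cdk14 and Terb1 stood on opposite sides of 0. How often the libraries of all tested genes separate by group was not counted, so no RNA direction is read for either gene. Values of the other 5 follow. Gm21811 had 11.9 and 36.4 CPM in control and 22.5 and 27.5 CPM in KO, Dgkk 0 and 6.54 against 9.68 and 0 CPM, and Nhs 0 and 2.34 against 0 and 1.05 CPM. Fam107b had 273 and 428 CPM in control and 302 and 51.6 CPM in KO, and Wdr17 45.8 and 71.3 against 9.75 and 50.5 CPM. Among imprinted genes with a peak, Mest had 74.9 and 12.8 CPM in control and 0 in both KO libraries, while Plagl1 had 6.38 and 4.89 CPM in control and 35.5 and 17.1 CPM in KO. None of these genes had an edgeR adjusted p under the threshold.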

How the data were processed

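H3K27me3, H3K4me3 and AcNPM1 were profiled in control and LoNA KO embryos at 24 h with an in-situ ChIP kit, and RNA was sequenced at 18 to 24 h. The submitters' processing notes name bcl2fastq 2.2, Bowtie2 2.1.0, MACS2 2.1.1 and mm10 for chromatin, and Bowtie2 2.2.3, HISAT2 2.1.0 and HTSeq 0.6.0 for RNA, without roles. How peaks of both conditions were merged, and whether duplicates or reads with several matches were kept, is not given in the sources used here. The deposited peak tables hold read counts, total reads (an other quantity, constant per column), RPM and the authors' log2 ratio. RPM and log2 ratio recomputed from the deposited counts differed from the table by at most 4.998e-05 and 0.000166. The deposited RNA tables hold counts per gene. The series' design text names H3K27ac where labels and tables name H3K27me3.

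The log2 ratios here were computed from counts with 0.5 reads added, at least 20 reads per peak, and exact (Clopper-Pearson) 95% intervals. Gene starts were 37525 Ensembl starts of the RNA tables and 32851 RefSeq starts (none on chromosome 18). Promoter means within 2 kb, and exons or UTRs were not resolved. RNA columns of a group with r over 0.99 in log2(CPM + 1) were summed, which left 2 libraries per group from 8 columns; p-values measure only the spread between these. edgeR 4.0.16 (TMM, filterByExpr) and DESeq2 1.42.0 ran in R 4.3.3; the rest in Python 3.11.15 with scipy 1.17.1. Named were the 10 highest and 10 lowest promoter peaks, the 5 strongest, the 5 highest and 5 lowest elsewhere, and members of the lists with a peak. The last peaks of chromosomes were added later. Values of some list members are not reported here. The members and lists were chosen with earlier results of these data known. Scripts were tested on simulated data. The simulated RNA libraries varied far less than the 158% of the real fit, so they do not show what edgeR could find here. Alternatives covered scaling, added reads, read minimum, fold, chromosomes, windows, overlap and the RNA fit.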

Additional observations from a re-analysis of the deposited data

How the results depend on the processing

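Direction and count of 2-fold peaks were within 1.5 times under both other scalings, 0 or 5 added reads, no minimum or 50 reads, and autosomes only (2 or 3 higher, 20 to 36 lower). Only the threshold itself moved them: 258 higher and 299 lower at 1.5-fold, 0 and 3 at 3-fold. Medians are set by the scaling. With reads in peaks as the scale, the median of all peaks was 0.022, of promoter peaks 0.061, of developmental transcription factors 0.044 and of signalling genes 0.080. With ratios centred on their median these were 0 by construction, 0.039, 0.022 and 0.059, and Hox genes stood at 0.075. The median of two-cell genes was below 0 under both scalings, while those of imprinted genes changed sign: centred, to -0.015 (through H3K27me3) and -0.050 (through DNA methylation), and with reads in peaks to -0.028 for the latter. With 5 reads added the medians of all and of promoter peaks were 0.056 and 0.095, and with a 5 kb window the promoter median was 0.092. The KO excess in the share of reads in peaks was 0.293 percentage points without the 20 highest peaks, an alternative chosen after seeing the data, against 0.179. Among genes with a promoter peak, edgeR called 0 to 4 with 1 library left out, the lone library being assumed to vary like the others. DESeq2 called 68, and edgeR on separate columns 109 of 789 such genes tested (13.8%), against 12.1% of all genes tested. No paired analysis was possible because the RNA columns carry no replicate numbers of the labels and each chromatin table has 1 column per condition. With 1 library per condition, counting error is the only error known for H3K27me3, and a weak peak of 80 reads cannot show a small difference.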

Other observations

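H3K27me3 peaks were unevenly spread along the genome. Of 2296 megabases with a peak the median held 4, and the fullest held 77, at 20 Mb of chromosome 8, where the median ratio of KO to control was -0.043. The next was at 114 Mb of chromosome 6, which holds the interval from Hrh1 to Atg7, with 57 peaks and a median ratio of 0.16. Stretches at 4, 5, 6 and 7 Mb of chromosome 14 held 48, 46, 41 and 32 peaks, with medians of -0.0090, 0.039, 0.095 and 0.041. The median ratio was above 0, on the scale of total reads, on each of the 21 chromosomes, from 0.031 on X (275 peaks) to 0.10 on chromosome 19 (288 peaks). On the Y chromosome there were 20 peaks, with a median of 0.042.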
